A study of Mus musculus with 10 samples.

Results

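Glycolysis breaks glucose down to pyruvate in the cytosol, and tumours often send that pyruvate to lactate rather than into the mitochondria. When oxygen is short, the alpha subunits of the hypoxia-inducible factors escape hydroxylation and destruction, pair with a stable partner and switch on glucose carriers, glycolytic enzymes, lactate export, mitophagy receptors and collagen hydroxylases. The 36 genes described here are the core of that programme: 5 oxygen-sensing genes, 2 glucose carriers, 11 genes of upper and 6 of lower glycolysis, 5 genes that handle lactate and pyruvate, and 7 other hypoxia-inducible targets. They were chosen by symbol from a list of known pathway members, and all 36 were found among the 56748 genes of the deposited table. The aldolase gene Aldoa has 2 rows there, so the genes fill 37 rows.

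RNA of 10 mouse stomach tumours was sequenced, 5 of an inflamed type and 5 of a desert type. The inflamed tumours carried the genotype Tff1-CreERT2;Apcfl/fl;Trp53fl/fl, in which a tamoxifen-inducible Cre recombinase driven by the Tff1 gene deletes floxed Apc and Trp53 in cells where Tff1 is active. The desert tumours were orthotopic allografts, that is, tumour cells transplanted into the stomach, with the genotype given as wild type; the labels name neither the alterations of the grafted cells nor whether they form 1 line. The 2 types thus also differ in genotype and in how tumours arose, and these cannot be told apart. Age, sex, strain and batch were not stated, nor whether each tumour came from a separate animal, so p-values measure the spread between these tumours only.

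The libraries held 15474313 to 15975770 reads in genes in inflamed tumours and 14148147 to 16951640 in desert tumours. T cell markers matched the names of the groups, with all 5 of 5 markers higher in inflamed tumours and a summed level of 5.66 to 16.5 FPKM there, against 0.303 to 0.811 FPKM in desert tumours. The gastric label did not hold equally. Gastric epithelium markers (4 of 5 higher) summed to 4407 to 22303 FPKM in inflamed tumours and to 10.9 to 38.8 FPKM in desert tumours, where Tff2 was at most 0.605 FPKM and Gkn1 at most 3.01 FPKM, whereas 4 pan-epithelial markers summed to 2409 to 4044 FPKM in inflamed and 1348 to 1999 FPKM in desert tumours. In bulk tissue, fewer cells of a type and less RNA per cell cannot be told apart.

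Values are FPKM, the reads of a gene scaled by its length and by library size, and differences are inflamed minus desert on the log2(FPKM + 1) scale, which understates the change of low genes. A gene was called when its Benjamini-Hochberg adjusted p in limma, fitted over the 16750 genes whose mean FPKM reached 0.5, was under 0.05. By that rule 6 of the 36 rows tested rose in inflamed tumours (Hif1a, Epas1, Pfkp, Pfkfb4, Slc16a1 and Pdk1) and 11 fell (Egln1, Vhl, Gpi1, the second Aldoa row, Tpi1, Eno2, Pkm, Bnip3, Bnip3l, P4ha1 and P4ha2), while 19 were not called. Over all tested genes 31% were called higher and 31.2% lower, so the share of members called lower, 30.6%, was near the background and the share called higher, 16.7%, was below it. The groups did not overlap in 9 member rows (3 with inflamed tumours above, 6 below), against 48.9% of all tested genes. The median difference of the members was -0.16 and that of all tested genes was -0.0072.

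The scaling of the libraries bore on these counts. Summed FPKM over all genes was 280795 to 356133 in inflamed tumours and 236901 to 269525 in desert tumours. Rescaling each library to the same sum (TPM) moved the median of all genes to -0.28 and the members' median to -0.45. On that scale 3 members were higher (Epas1, Pfkfb4 and Slc16a1), with 22.5% of all genes called higher, and 17 were lower, with 41.7% of all genes called lower. The 17 were the 11 above and Ankrd37, Eno1, Gapdh, Ldha, Pfkl and Slc16a3. Less the shifted median, the TPM differences of the genes that lost their call were 0.35 for Hif1a, 0.69 for Pdk1 and 0.88 for Pfkp. Those of the added genes were -0.47 for Ankrd37, -0.16 for Eno1, -0.30 for Gapdh, -0.21 for Ldha, -0.52 for Pfkl and -0.86 for Slc16a3. Subtracting the median largely undoes the rescaling, so these values test nothing further.

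**Figure D1:**
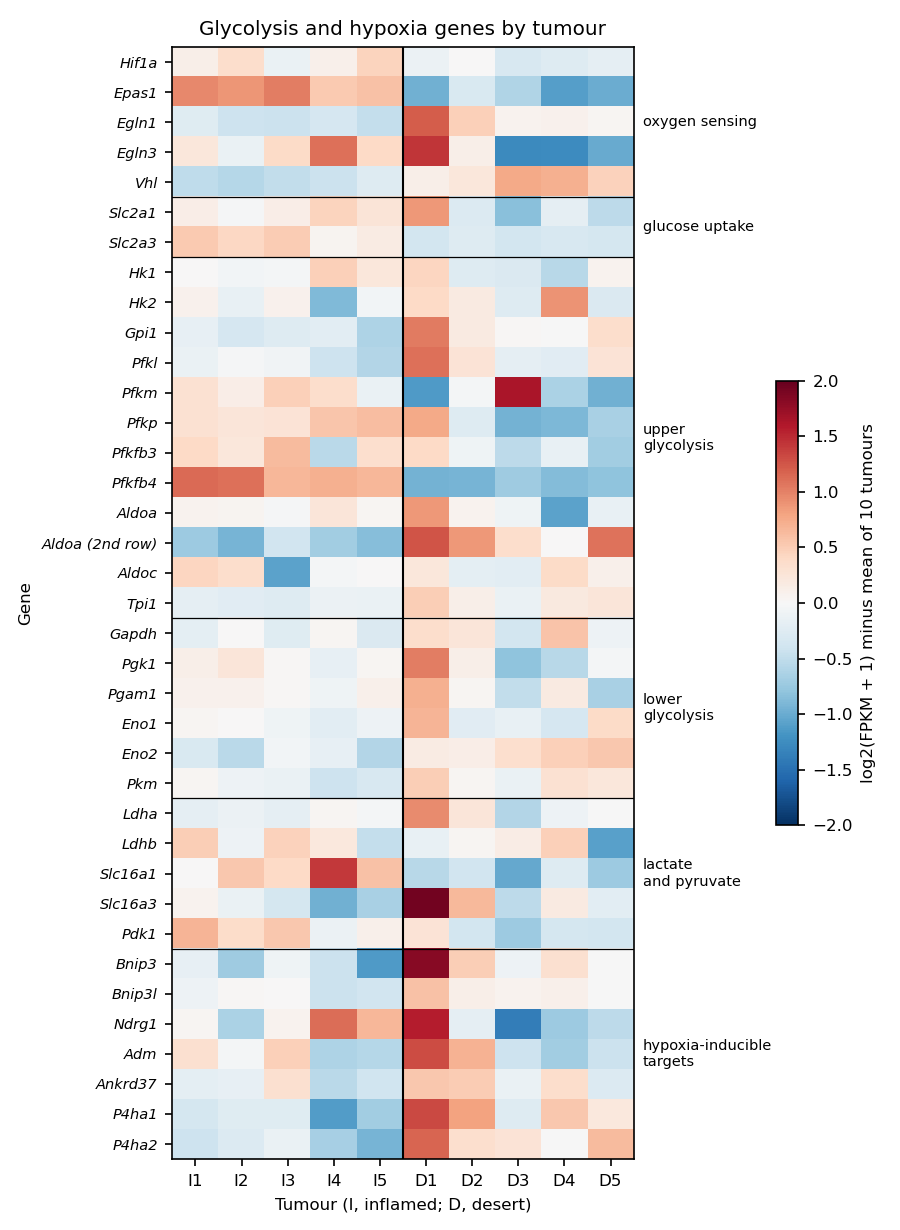
Colour gives log2(FPKM + 1) of each member row in each tumour minus the mean of the 10 tumours, with inflamed tumours (I) left of desert tumours (D) and rows ordered by role. Desert tumour 1 is the highest desert tumour in 25 of the 37 rows.

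One library stood apart in the heat map of members by tumour. Desert tumour 1 was the highest of the 5 desert tumours in 25 of the 37 rows (24 on the TPM scale), whereas it was the highest in 27.8% of all tested genes (16.2% on the TPM scale). Its level was a median of 1.67 times the median of the other 4 desert tumours over the members and 1.006 times over all tested genes. In 11 rows, or 29.73%, the ratio was above 2, against 4.281% of all tested genes. Desert tumour 1 had a summed red blood cell marker level of 152.9 FPKM, against 32.0 to 90.7 FPKM in the other desert tumours. It was also the highest desert tumour in cartilage markers (553 FPKM, against 346 to 444 FPKM) and in pan-epithelial markers (1999 FPKM, against 1348 to 1580.3 FPKM), and the part of these in its levels was not tested. Its 14714211 reads lay within the range of the group. Without it, 10 members were higher, with 31% of all genes called higher, and 9 were lower, with 30.5% of all genes called lower. Egln3, Hk1, Ndrg1 and Slc2a1 joined the genes that rose, and Bnip3l and Pkm left those that fell. Desert tumour 1 was singled out by its levels in these same genes and held the highest desert value of each of them. Leaving out the highest desert value must raise inflamed minus desert, so these changes are no separate evidence of a rise.

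The hypoxia-inducible factors bind DNA at a short core, ACGTG or GCGTG. The windows from 250 bases before to 50 bases after the transcript start were read for 32 of the 36 members from RefSeq (GRCm38.p6); Epas1, Slc2a3, Bnip3l and Ndrg1 have none in the table used. ACGTG on either strand (CACGT on the strand shown) was present in 21 of the 32 genes (65.6%) and in 21.8% of the 27025 genes with a window, and GCGTG in 65.6% and 35.2% of the same genes. Member genes were also richer in CpG. With each gene taken at its window with the most CpG, the median was 24 CpG against 8 over all genes. Among windows with at least 15 CpG, ACGTG was present in 62.5% of 32 member windows and 28.4% of 11378 windows in all, whereas GCGTG was present in 56.2% and 60.6% of the same windows. By call, ACGTG was present in 2 of 5 members that rose, 5 of 9 that fell and 14 of 18 that were not called. A match is a description of the sequence only.

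Shown are the windows of 4 genes that were high in desert tumour 1 (Egln3, Slc2a1, Slc16a3 and Bnip3) and of Slc16a1, a gene that was not, each 5′ to 3′ on the strand of the gene with ACGTG or CACGT in capitals. Each window shown holds ACGTG, and the 4 do not stand for all members that were high in desert tumour 1. Adm, Pfkp and Pfkl were 3.89, 3.34 and 2.08 times the median of the other 4 desert tumours there. Their windows hold 0 matches to ACGTG. The palindrome CACGTG, in Bnip3 and Slc16a1, holds both overlapping matches. The windows are chr12:54203825-54204124 (minus strand) for Egln3, chr4:119108495-119108794 (plus strand) for Slc2a1, chr11:120948817-120949116 (plus strand) for Slc16a3, chr7:138909457-138909756 (minus strand) for Bnip3 and chr3:104638414-104638713 (plus strand) for Slc16a1.
Egln3: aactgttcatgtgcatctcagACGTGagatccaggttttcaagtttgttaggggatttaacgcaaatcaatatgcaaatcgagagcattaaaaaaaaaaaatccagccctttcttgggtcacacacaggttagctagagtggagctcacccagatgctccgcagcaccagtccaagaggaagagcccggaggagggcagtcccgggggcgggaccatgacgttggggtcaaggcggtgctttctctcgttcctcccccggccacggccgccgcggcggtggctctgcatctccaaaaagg
Slc2a1: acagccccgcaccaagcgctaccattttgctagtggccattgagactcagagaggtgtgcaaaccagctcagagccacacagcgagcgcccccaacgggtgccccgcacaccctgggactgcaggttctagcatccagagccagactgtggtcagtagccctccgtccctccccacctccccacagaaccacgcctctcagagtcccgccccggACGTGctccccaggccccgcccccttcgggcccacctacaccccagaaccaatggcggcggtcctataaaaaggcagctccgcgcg
Slc16a3: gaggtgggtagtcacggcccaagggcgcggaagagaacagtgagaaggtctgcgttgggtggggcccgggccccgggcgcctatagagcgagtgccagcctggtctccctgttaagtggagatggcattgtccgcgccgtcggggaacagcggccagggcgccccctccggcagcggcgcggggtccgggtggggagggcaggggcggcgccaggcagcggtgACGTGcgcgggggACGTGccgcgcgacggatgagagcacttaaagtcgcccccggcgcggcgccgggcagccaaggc
Bnip3: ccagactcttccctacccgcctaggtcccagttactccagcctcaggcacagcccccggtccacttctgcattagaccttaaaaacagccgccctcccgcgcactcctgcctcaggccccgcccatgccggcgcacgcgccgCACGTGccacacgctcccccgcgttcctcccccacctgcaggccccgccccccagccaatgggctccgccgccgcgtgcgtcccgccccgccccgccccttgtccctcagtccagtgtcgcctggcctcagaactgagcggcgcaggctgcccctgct
Slc16a1: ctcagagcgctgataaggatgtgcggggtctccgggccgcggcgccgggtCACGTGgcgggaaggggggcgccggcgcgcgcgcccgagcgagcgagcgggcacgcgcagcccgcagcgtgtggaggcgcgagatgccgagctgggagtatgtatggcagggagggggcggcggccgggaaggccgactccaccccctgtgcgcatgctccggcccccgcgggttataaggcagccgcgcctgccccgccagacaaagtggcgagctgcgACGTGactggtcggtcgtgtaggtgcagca

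Of the 5 oxygen-sensing genes, 2 rose (40%), 2 fell (40%) and 1 was not called. Over all tested genes 31% were called higher and 31.2% lower, and so short a list was not tested against these shares. Both alpha subunits rose in inflamed tumours, Epas1 (HIF-2 alpha) far more than Hif1a (HIF-1 alpha), and 2 of the genes that limit them, Egln1 and Vhl, fell. Hif1a (ENSMUSG00000021109; chromosome 12, 73948149 to 73994304 in the deposited table) had 30.7, 36.2, 25.8, 30.6 and 38.9 FPKM in inflamed tumours 1 to 5, against 25.9, 28.4, 22.5, 23.5 and 24.9 FPKM in desert tumours 1 to 5. Inflamed tumour 3 lay within the desert range and the other 4 lay above it. The difference was 0.35 ± 0.12 (SE; limma adjusted p = 0.0201), was 0.06 on the TPM scale (adjusted p = 0.677) and lost its call without inflamed tumour 2 (adjusted p = 0.0517).

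Epas1 (ENSMUSG00000024140; chromosome 17, 87061128 to 87140838 in the deposited table) had 19.7, 18.7, 20.5, 14.2 and 14.9 FPKM in inflamed tumours 1 to 5, against 4.44, 7.59, 6.02, 3.96 and 4.33 FPKM in desert tumours 1 to 5. Every inflamed tumour lay well above every desert tumour. The difference was 1.59 ± 0.16 (limma adjusted p = 1.12e-05, and at most 0.000149 under the alternatives). Epas1 is best known from endothelium, and 3 of 5 endothelial markers were higher in inflamed tumours, with a summed level of 14.4 to 36.5 FPKM there and 11.2 to 16.0 FPKM in desert tumours. The part of these markers in the Epas1 difference was not tested. Within libraries the log2 ratio of Epas1 to Hif1a was 1.24 higher in inflamed tumours, with no overlap. Its exact two-sided permutation p was 0.00794, the smallest that 5 against 5 tumours allow (0.0206 adjusted over 13 ratios). This ratio, like the other ratios given below, is made of the same values as its 2 differences, so it restates them and is no separate evidence.

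Egln1 and Egln3 encode prolyl hydroxylases that mark the alpha subunits for destruction, and Egln3 is itself a strong hypoxia target. Egln1 was 15.7 to 18.6 FPKM in inflamed tumours and 22.6 to 52.4 FPKM in desert tumours, without overlap, and fell by 0.75 on the log2 scale (SE 0.20; limma adjusted p = 0.0078). Egln3 had 31.8, 24.6, 35.4, 58.9 and 35.7 FPKM in inflamed tumours 1 to 5, against 74.1, 29.3, 10.6, 10.7 and 12.9 FPKM in desert tumours 1 to 5. The single highest value was in desert tumour 1 and the 3 lowest were in desert tumours 3 to 5. Egln3 was not called in the full comparison (difference 0.79, 95% interval -0.28 to 1.86, limma adjusted p = 0.177). It was called higher only with desert tumour 1, its highest value, left out (1.25, limma adjusted p = 0.00666). With all tumours kept, the ratio of Egln3 to Egln1 was 1.55 higher on the log2 scale in inflamed tumours, without overlap (exact permutation p = 0.00794, adjusted 0.0206). Egln1 alone already separated the groups, and desert tumour 1 was the highest desert tumour in both genes. The ratio is thus no separate evidence of a rise in Egln3.

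Vhl, the substrate receptor of the ubiquitin ligase that removes hydroxylated alpha subunits, was 8.02 to 10.3 FPKM in inflamed tumours and 13.7 to 21.7 FPKM in desert tumours. The groups did not overlap, and Vhl fell by 0.91 on the log2 scale (SE 0.13; limma adjusted p = 0.000122). Here desert tumour 1 was the lowest desert tumour, the reverse of its place for Egln1 and Egln3.

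Glucose enters through the facilitative carriers encoded by Slc2a1 (GLUT1) and Slc2a3 (GLUT3). Slc2a1 had 30.0, 26.6, 30.0, 37.5 and 32.5 FPKM in inflamed tumours 1 to 5, against 50.1, 22.3, 14.7, 23.9 and 18.6 FPKM in desert tumours 1 to 5. The 5 inflamed tumours lay between desert tumour 1 and the other 4 desert tumours. The difference of 0.38 was not called (95% interval -0.20 to 0.96; limma adjusted p = 0.228), and without desert tumour 1 it was 0.64 and called (adjusted p = 0.00355).

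Slc2a3 was too low to enter the test, at 0.462 to 1.03 FPKM in inflamed tumours and 0.0943 to 0.179 FPKM in desert tumours, without overlap. In a fit with no filter its difference was 0.67 (limma adjusted p = 0.000591). Neutrophils carry this transporter, and all 4 of the 5 neutrophil markers that were tested were higher in inflamed tumours, with a summed level of 8.12 to 151 FPKM there and 0.636 to 1.57 FPKM in desert tumours; their part in the result was not tested.

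**Figure D2:**
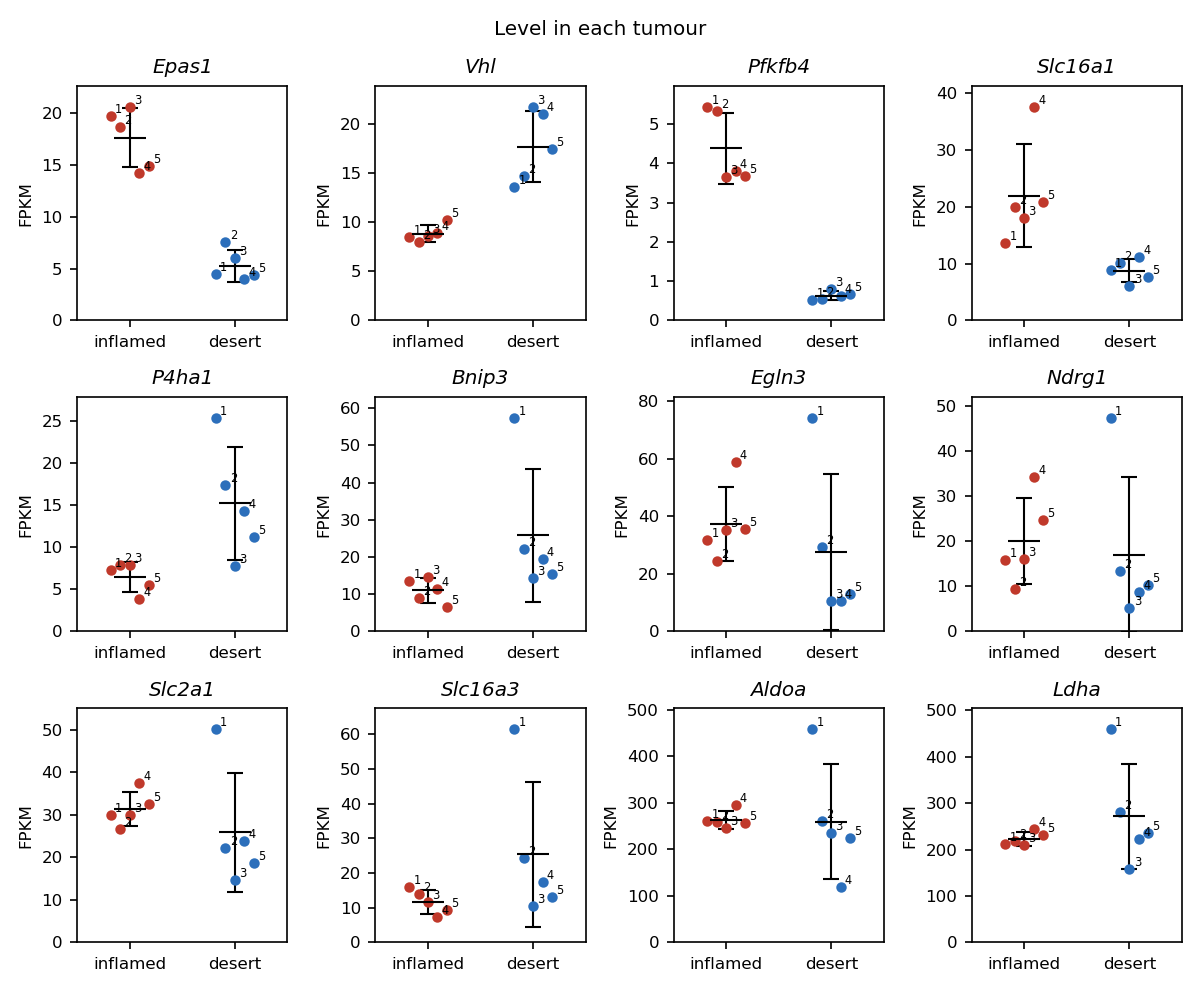
Each point is the FPKM of one tumour, numbered within its group, for 12 members, with inflamed tumours in red at left and desert tumours in blue at right; horizontal bars and whiskers are the mean and SD of 5 tumours, with the axis starting at 0 (the lower whisker of Ndrg1 in desert tumours ends just below it). Epas1, Vhl, Pfkfb4 and Slc16a1 separate the groups, while in Egln3, Ndrg1, Slc2a1, Slc16a3 and Ldha desert tumour 1 lies above all other tumours.

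Upper glycolysis had 2 of its 12 rows higher (16.7%), 3 lower (25%) and 7 not called. Both shares were below those of all tested genes, 31% higher and 31.2% lower. The lowest adjusted p of the set belonged to Pfkfb4, one of the bifunctional enzymes that make and remove the sugar phosphate activator of phosphofructokinase. Pfkfb4 (ENSMUSG00000025648; chromosome 9, 108820846 to 108861296 in the deposited table) had 5.43, 5.33, 3.65, 3.80 and 3.68 FPKM in inflamed tumours 1 to 5, against 0.521, 0.543, 0.790, 0.615 and 0.681 FPKM in desert tumours 1 to 5. All inflamed tumours lay far above all desert tumours. The difference was 1.71 ± 0.13 (limma adjusted p = 8.39e-07, and at most 0.000138 under the alternatives), and desert tumour 1 was the lowest of the 10.

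Its paralog Pfkfb3, which favours synthesis of that activator, was 3.34 to 8.75 FPKM in inflamed tumours and 2.92 to 7.38 FPKM in desert tumours and was not called (0.41; limma adjusted p = 0.162), though with inflamed tumour 4 left out it rose (0.60; adjusted p = 0.0255). Pfkfb4 held 26.4% ± 4.45 of the summed FPKM of the Pfkfb1 to Pfkfb4 family in inflamed tumours and 7.24% ± 2.43 in desert tumours (SD, n = 5 each). The log2 ratio of Pfkfb4 to Pfkfb3 was 1.29 higher in inflamed tumours, without overlap (exact permutation p = 0.00794; adjusted 0.0206), and 0.48 higher, not called, with a pseudocount of 5 (adjusted 0.0825).

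Phosphofructokinase, the committed step of glycolysis, has 3 isoforms named for liver (Pfkl), muscle (Pfkm) and platelet (Pfkp). Pfkp was 9.42 to 12.6 FPKM in inflamed tumours and 3.58 to 14.0 FPKM in desert tumours, where desert tumour 1 was the only one above 6.41. It rose by 0.80 (SE 0.28; limma adjusted p = 0.0307). That call was lost when any of inflamed tumours 4 and 5 and desert tumours 3 to 5 was left out (adjusted p of 0.0587 to 0.0746), and without desert tumour 1 the difference was 1.08 (adjusted p = 0.000182).

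Pfkl was 19.1 to 28.6 FPKM in inflamed tumours and 24.7 to 63.2 FPKM in desert tumours and was not called (-0.49; limma adjusted p = 0.0861). It was called lower without desert tumour 4 (-0.61; adjusted p = 0.0442), on the TPM scale (-0.80; adjusted p = 0.0101), with quantile normalization (-0.56; adjusted p = 0.0406) and with voom on the recovered reads (-0.58; adjusted p = 0.0454). Without desert tumour 1 the Pfkl difference was -0.28 (limma adjusted p = 0.146). The isoform shares differed. Pfkp held 25.8% ± 5.82 of the summed phosphofructokinase FPKM in inflamed tumours and 12.3% ± 3.77 in desert tumours, without overlap (21.2% to 34.4% against 7.35% to 17.7%). The log2 ratio of Pfkp to Pfkl was 1.29 higher in inflamed tumours, without overlap (exact permutation p = 0.00794; adjusted 0.0206).

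Pfkm was 5.03 to 8.27 FPKM in inflamed tumours, against 2.01, 5.48, 19.5, 3.27 and 2.40 FPKM in desert tumours 1 to 5. The value of desert tumour 3 stood above all others. Skeletal muscle markers summed to 269 FPKM in that tumour and to 80.3 FPKM in desert tumour 2, against 1.20 to 3.32 FPKM in inflamed tumours and at most 4.51 FPKM in the other 3 desert tumours; 1 of the 5 markers was called lower and none higher. Pfkm was not called over all tumours (0.46; limma adjusted p = 0.395). It rose once desert tumour 3 was left out (0.92; adjusted p = 0.00491) and, in a comparison added after the data had been seen, with desert tumours 2 and 3 left out (1.14; adjusted p = 0.000593).

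**Figure D3:**
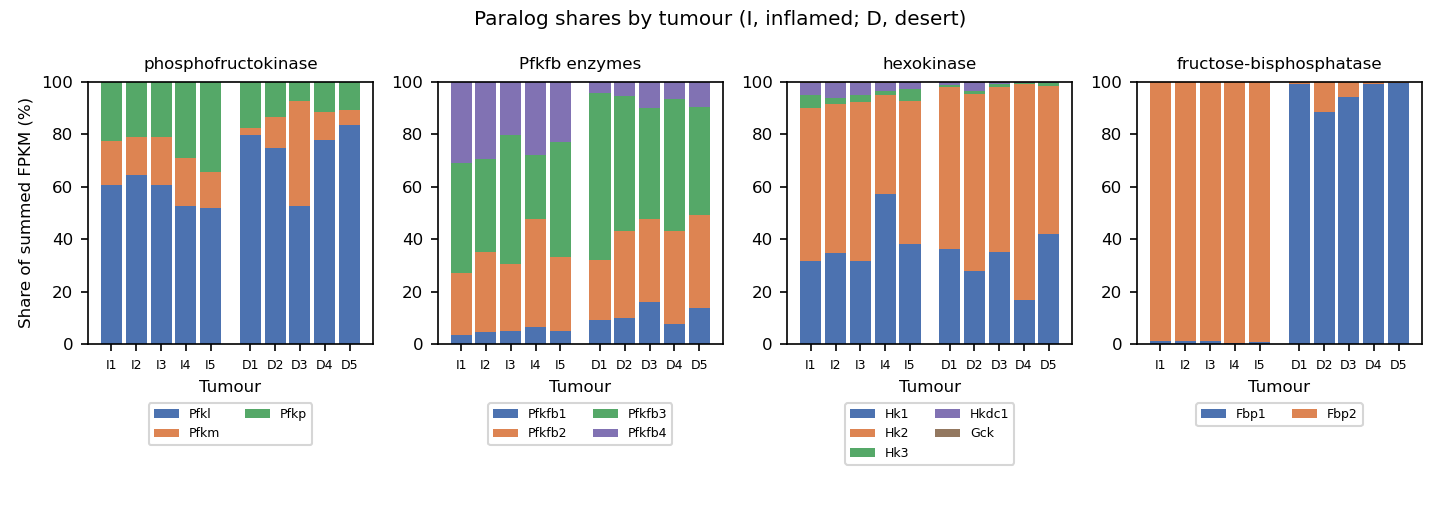
Stacked bars give each paralog's share of the summed FPKM of its enzyme family in each tumour, with inflamed tumours (I) left of desert tumours (D). Pfkp and Pfkfb4 take larger shares in inflamed tumours, and fructose-bisphosphatase is almost all Fbp2 in inflamed tumours and mostly Fbp1 in desert tumours.

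Hexokinase traps glucose in the cell, and neither of its abundant isoforms, Hk1 and Hk2, was called. Hk1 was 19.3 to 28.5 FPKM in inflamed tumours and 13.4 to 27.4 FPKM in desert tumours (0.24; limma adjusted p = 0.262), and it crossed the threshold only without desert tumour 1 (0.38; adjusted p = 0.049). Hk2, the hypoxia-responsive form, was 18.6 to 37.5 FPKM in inflamed tumours and 28.5 to 66.1 FPKM in desert tumours (-0.37, 95% interval -0.93 to 0.19; adjusted p = 0.225). Hk2 made up 53.5% ± 9.25 of hexokinase FPKM in inflamed tumours and 66.1% ± 9.95 in desert tumours, and the ratio of Hk2 to Hk1 was not called (-0.61; exact permutation p = 0.23, adjusted 0.333). The rarer family members outside the set, Hk3 (0.91; adjusted p = 0.00458) and Hkdc1 (1.02; adjusted p = 0.0108), both named after their values were seen, rose in limma at levels of at most 3.16 FPKM in any tumour.

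Gpi1, the isomerase that follows hexokinase, was 64.9 to 89.3 FPKM in inflamed tumours and 99.3 to 207 FPKM in desert tumours. It did not overlap between groups and fell by 0.64 on the log2 scale (SE 0.19; limma adjusted p = 0.0129). Tpi1, which interconverts the 2 triose phosphates, was 135 to 149 FPKM in inflamed tumours and 147 to 226 FPKM in desert tumours and fell by 0.36 on the log2 scale (SE 0.11; adjusted p = 0.0149).

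Aldoa, the main aldolase, had 262, 259, 245, 296 and 257 FPKM in inflamed tumours 1 to 5, against 458, 262, 235, 119 and 225 FPKM in desert tumours 1 to 5. The inflamed tumours sat close together inside a desert range set by tumours 1 and 4. The difference was 0.15 (95% interval -0.46 to 0.76; limma adjusted p = 0.664). Aldoc, a second aldolase, was 8.47 to 26.0 FPKM in inflamed and 16.1 to 25.1 FPKM in desert tumours and was not called (-0.12; adjusted p = 0.7).

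The second Aldoa row (ENSMUSG00000114515) is a short gene model beside the main one (ENSMUSG00000030695) on chromosome 7. It had 1.42, 1.11, 2.08, 1.48 and 1.22 FPKM in inflamed tumours 1 to 5, against 8.56, 6.33, 4.12, 3.03 and 7.52 FPKM in desert tumours 1 to 5. The groups did not overlap, and the row fell by 1.43 on the log2 scale (SE 0.23; limma adjusted p = 0.00025) while the main row did not. No source used here says how reads shared by the 2 models were counted, and the split between them is uncertain.

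**Figure D4:**
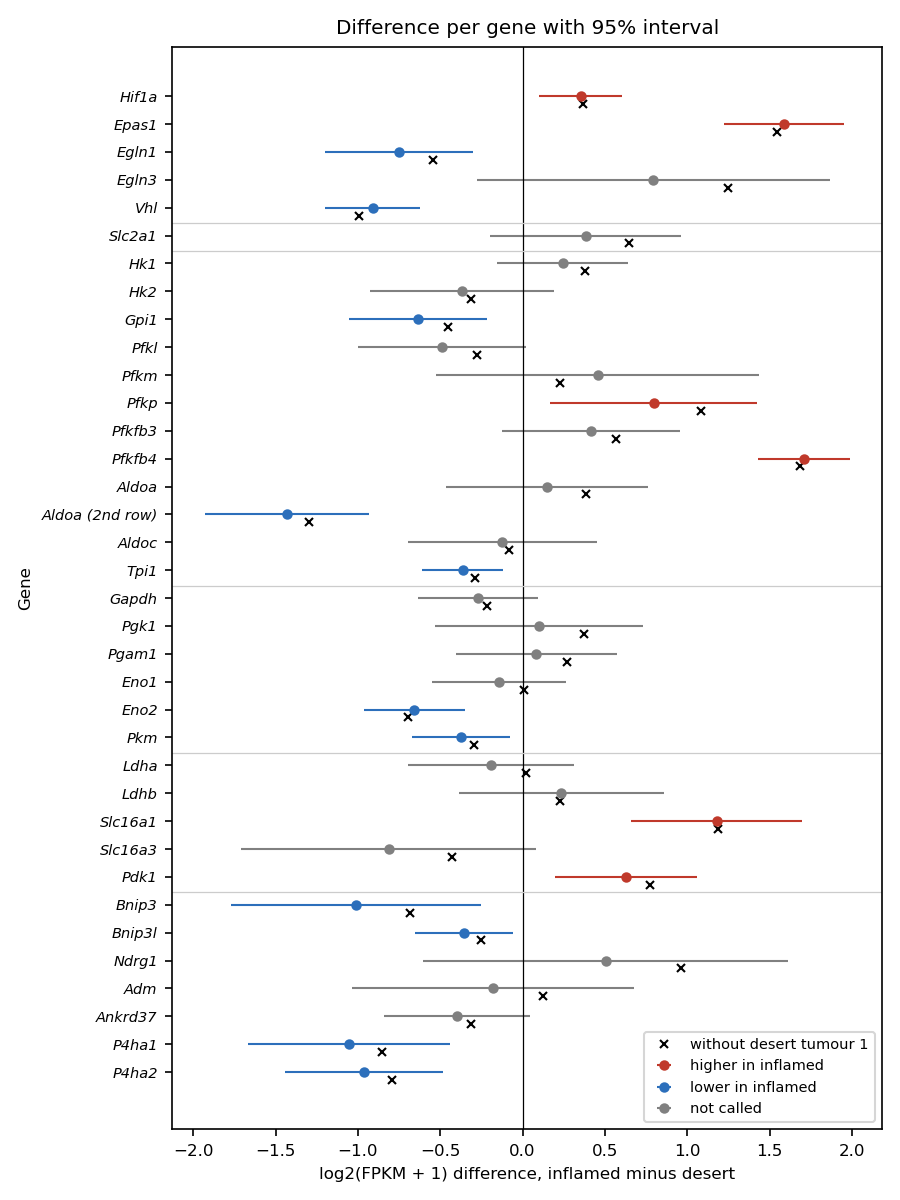
Points give the log2(FPKM + 1) difference, inflamed minus desert, of the 36 tested member rows with 95% intervals, coloured by call; crosses give the difference without desert tumour 1. Crosses lie to the right of most points, and Egln3, Hk1, Ndrg1 and Slc2a1 pass the threshold only without that tumour.

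Lower glycolysis held no gene that rose, 2 that fell and 4 that were not called. The share that fell, 33.3%, was near the 31.2% of all tested genes, of which 31% rose. Pkm, which encodes the pyruvate kinase of most tissues and tumours, was the most abundant gene of the group. It had 249.7, 227, 222, 183 and 194 FPKM in inflamed tumours 1 to 5, against 343, 252, 222, 301 and 285 FPKM in desert tumours 1 to 5. The groups overlapped only through desert tumour 3. Pkm fell by 0.37 on the log2 scale (SE 0.13; limma adjusted p = 0.0304), a call lost when any of inflamed tumours 4 and 5 and desert tumours 1, 4 and 5 was left out (adjusted p of 0.0575 to 0.0697).

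Eno2, the enolase of neurons, was low, at 0.286 to 0.851 FPKM in inflamed tumours and 1.10 to 1.80 FPKM in desert tumours. It did not overlap and fell by 0.66 on the log2 scale (SE 0.14; limma adjusted p = 0.0017). Neuron markers gave no single direction, with 1 higher and 1 lower of 2 tested among 5, and summed to 5.88 to 9.44 FPKM in inflamed and 12.6 to 19.9 FPKM in desert tumours, mostly from Uchl1; Elavl4 was at or near 0 in every tumour.

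The other 4 genes of lower glycolysis were not called. Pgk1, the first step that yields ATP, was 160.0 to 211 FPKM in inflamed and 102 to 367 FPKM in desert tumours (0.10; limma adjusted p = 0.779). Eno1, the main enolase, was 132 to 158 FPKM in inflamed and 122 to 247 FPKM in desert tumours (-0.14; adjusted p = 0.522). Pgam1, a mutase, was 61.2 to 70.5 FPKM in inflamed and 41.2 to 107 FPKM in desert tumours (0.08; adjusted p = 0.764). In all 3 the highest tumour was desert tumour 1 and the inflamed range lay inside the desert range. Gapdh, the dehydrogenase before Pgk1, was listed at only 4.46 to 5.80 FPKM in inflamed and 4.16 to 8.84 FPKM in desert tumours (-0.27; adjusted p = 0.173), and it was called lower without desert tumour 3 (-0.40; adjusted p = 0.0317). Gapdh and several neighbours in the pathway have near-identical pseudogene copies, and since the treatment of shared reads was not given, their levels are uncertain.

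Lactate handling differed between its 2 carriers. Slc16a1 (MCT1) carries lactate in either direction and Slc16a3 (MCT4) is the hypoxia-inducible exporter. Slc16a1 (ENSMUSG00000032902; chromosome 3, 104545984 to 104565778 in the deposited table) had 13.6, 20.0, 18.0, 37.5 and 20.8 FPKM in inflamed tumours 1 to 5, against 8.91, 10.1, 6.11, 11.1 and 7.73 FPKM in desert tumours 1 to 5. All inflamed tumours were above all desert tumours, with inflamed tumour 4 highest. Slc16a1 rose by 1.18 (SE 0.24; limma adjusted p = 0.00121, and at most 0.00911 under the alternatives). Its promoter window, printed above, holds 3 matches to ACGTG, of which 2 overlap in the palindrome CACGTG. These matches describe the sequence only, and their part in the rise was not tested.

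Slc16a3 had 16.0, 13.9, 11.7, 7.36 and 9.44 FPKM in inflamed tumours 1 to 5, against 61.5, 24.5, 10.4, 17.5 and 13.1 FPKM in desert tumours 1 to 5. Desert tumour 1 was far above the rest, and desert tumours 3 and 5 lay among the inflamed ones. The difference of -0.81 was not called (95% interval -1.71 to 0.08, limma adjusted p = 0.103). Without desert tumour 1 it was -0.43 (adjusted p = 0.181). Slc16a3 was called lower without desert tumour 3 (-1.05, adjusted p = 0.0426) and on the TPM scale (-1.14, adjusted p = 0.0308). The log2 ratio of Slc16a3 to Slc16a1 fell by 1.99, with no overlap (-2.20 to 0.22 in inflamed tumours and 0.61 to 2.66 in desert tumours; exact permutation p = 0.00794, adjusted 0.0206).

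Lactate dehydrogenase itself did not pass the test. Ldha, which favours lactate formation, had 211, 219, 209.7, 245 and 232 FPKM in inflamed tumours 1 to 5, against 459, 281, 159, 222 and 236 FPKM in desert tumours 1 to 5. Desert tumour 1 stood far above the others and the inflamed tumours lay between desert tumours 3 and 2. The difference was -0.19 (95% interval -0.70 to 0.31; limma adjusted p = 0.485), and 0.02 without desert tumour 1. Ldhb was 14.2 to 28.8 FPKM in inflamed and 8.93 to 28.4 FPKM in desert tumours (0.24; adjusted p = 0.488).

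Pdk1 encodes a kinase that shuts pyruvate dehydrogenase and so keeps pyruvate out of the mitochondria. It was 6.31 to 11.6 FPKM in inflamed tumours and 3.75 to 8.52 FPKM in desert tumours, the upper desert value being tumour 1. Pdk1 rose by 0.63 (SE 0.20; limma adjusted p = 0.016), with a difference of 0.41 on the TPM scale (adjusted p = 0.145).

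Of the 7 other hypoxia-inducible targets, 4 fell in inflamed tumours (57.1%), none rose and 3 were not called. Over all tested genes 31.2% were called lower and 31% higher, and the share of so short a list was not tested against these. Bnip3 and Bnip3l encode mitophagy receptors that tag mitochondria for removal. Bnip3 had 13.7, 9.04, 14.6, 11.3 and 6.53 FPKM in inflamed tumours 1 to 5, against 57.3, 22.2, 14.5, 19.6 and 15.4 FPKM in desert tumours 1 to 5. Desert tumour 1 stood apart, and the groups overlapped only where inflamed tumour 3 met desert tumour 3. Bnip3 fell by 1.01 on the log2 scale (SE 0.34; limma adjusted p = 0.0245); the difference was -0.68 without desert tumour 1 (adjusted p = 0.0209), and the call was lost without inflamed tumour 2 or 5 (adjusted p = 0.0515 and 0.0595).

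Bnip3l had 24.3, 26.4, 26.2, 19.0 and 19.8 FPKM in inflamed tumours 1 to 5, against 39.5, 28.5, 27.5, 28.1 and 26.0 FPKM in desert tumours 1 to 5. The groups met at about 26 FPKM. Bnip3l fell by 0.35 on the log2 scale (SE 0.13; limma adjusted p = 0.0392), a call lost without any of inflamed tumours 1, 4 and 5 and desert tumours 1, 2 and 4 (adjusted p of 0.052 to 0.0911).

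P4ha1 and P4ha2 encode the catalytic subunits of collagen prolyl hydroxylase, which stabilises the collagen helix. P4ha1 had 7.27, 7.89, 7.87, 3.86 and 5.49 FPKM in inflamed tumours 1 to 5, against 25.3, 17.4, 7.81, 14.3 and 11.2 FPKM in desert tumours 1 to 5. Desert tumour 3 was level with the highest inflamed tumours and the other 4 were above. P4ha1 fell by 1.05 (SE 0.28; limma adjusted p = 0.00645) and P4ha2, at 2.25 to 4.61 FPKM in inflamed and 5.13 to 12.8 FPKM in desert tumours without overlap, fell by 0.96 (SE 0.22; adjusted p = 0.0027), both on the log2 scale. Beside them, 3 of 5 cartilage markers were tested and were lower in inflamed tumours (sum 51.0 to 68.0 FPKM, against 346 to 553 FPKM in desert tumours), and 2 of 5 fibroblast markers were higher (66.9 to 207 FPKM against 45.7 to 91.6 FPKM); their part in the result was not tested.

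The 3 targets not called were led by desert tumour 1. Ndrg1, a stress-responsive gene, was 9.42 to 34.2 FPKM in inflamed tumours, against 47.2 FPKM in desert tumour 1 and 5.24 to 13.3 FPKM in the other desert tumours (0.50; limma adjusted p = 0.404; 0.96 and 0.0363 without desert tumour 1). Adm, which encodes the vasodilator peptide adrenomedullin, was 3.21 to 7.91 FPKM in inflamed and 2.95 to 14.8 FPKM in desert tumours (-0.18; adjusted p = 0.708). Ankrd37, an ankyrin-repeat protein gene, was 2.05 to 4.50 FPKM in inflamed and 2.67 to 5.42 FPKM in desert tumours (-0.40; adjusted p = 0.108), and was called lower without inflamed tumour 3 or desert tumour 5 (adjusted p = 0.0344 and 0.043).

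A further 100 genes in 7 lists, not members of the set, give the surroundings of these genes in the same pathways. Of the 91 tested, 34 rose and 30 fell in inflamed tumours, or 37.4% and 33.0%, beside 31% and 31.2% of all genes. The same shares of all genes stand beside the counts of each single list below, none of which was tested against them. On the TPM scale 27 were higher and 38 lower, beside 22.5% and 41.7% of all genes. The median difference was 0.26, against -0.0072 over all tested genes. In the pentose phosphate pathway, which branches off glycolysis, 5 of 7 genes rose and 1 fell. Pgd, which makes NADPH and ribulose phosphate, averaged 69.2 ± 12.4 FPKM in inflamed tumours, against 11.9 ± 0.98 FPKM in desert tumours (SD over 5 tumours; 2.44; limma adjusted p = 4.29e-08), without overlap. Rpia, an isomerase of that pathway, rose by 1.32 (adjusted p = 3.84e-06), G6pdx, its entry enzyme, by 0.76 (adjusted p = 0.00164) and Taldo1, transaldolase, by 0.46 (adjusted p = 0.0188; 0.16 on the TPM scale, adjusted p = 0.225).

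In gluconeogenesis, the reverse route, 1 enzyme, fructose-bisphosphatase, differed in its main isoform. Its summed level was 29.6 to 47.3 FPKM in inflamed tumours and 3.87 to 7.66 FPKM in desert tumours. Fructose-bisphosphatase FPKM was 99.1% ± 0.351 Fbp2 in inflamed tumours and 4.01% ± 4.83 Fbp2 in desert tumours, the rest being Fbp1. Fbp2 had 29.2 to 47.1 FPKM in inflamed and 0.0358 to 0.881 FPKM in desert tumours (4.86; limma adjusted p = 9.75e-09), and Fbp1 had 0.215 to 0.418 FPKM in inflamed and 3.83 to 7.53 FPKM in desert tumours (-2.36; adjusted p = 5.78e-07). The gastric epithelium markers given above moved with Fbp2; their part in the result was not tested. Of the 4 genes tested 2 were higher and 1 lower, G6pc3, a glucose phosphatase, being the other that rose (0.29; adjusted p = 0.0268). Its difference was 0.0057 on the TPM scale (adjusted p = 0.971) and 0.23 with voom on the recovered reads (adjusted p = 0.0926), and the call was lost when any of inflamed tumours 1 and 2 and desert tumours 2 and 4 was left out (adjusted p of 0.0515 to 0.0664).

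Around pyruvate, 5 of 13 genes rose and 3 fell. Pcx, pyruvate carboxylase, averaged 25 ± 8.16 FPKM in inflamed tumours, against 5.21 ± 0.57 FPKM in desert tumours (2.02; limma adjusted p = 2.81e-06). Pdk4, another kinase of pyruvate dehydrogenase, rose by 1.02 (adjusted p = 0.00254) and Pdha1, a subunit of that enzyme, by 0.43 (adjusted p = 0.0114; 0.13 on the TPM scale, adjusted p = 0.459), while Dld, another subunit, was not called (0.08; adjusted p = 0.402).

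Of 20 tested isoforms and sugar carriers outside the set, 9 were higher and 7 lower. Pklr, the liver and red cell pyruvate kinase, averaged 14.4 ± 5.54 FPKM in inflamed tumours, against 3.55 ± 3.61 FPKM in desert tumours (1.95; limma adjusted p = 0.00147), yet Pkm kept 93.5% ± 3.01 of pyruvate kinase FPKM in inflamed tumours and 98.8% ± 1.13 in desert tumours. Slc2a6, a sugar carrier, rose by 1.81 (adjusted p = 6.42e-05). Bpgm, best known from red blood cells, fell by 0.98 on the log2 scale (adjusted p = 3.9e-05); red blood cell markers (2 of 5 lower, none higher) summed to 1.56 to 73.6 FPKM in inflamed and 32.0 to 153 FPKM in desert tumours, and their part in the result was not tested. Glycogen metabolism had 3 of 11 genes higher and 4 lower, among them Pgm2 (1.88; adjusted p = 4.8e-08), a phosphoglucomutase, and Pygl (-2.49; adjusted p = 0.000371), the liver glycogen phosphorylase, while Pygb, the brain form, was not called (0.42; adjusted p = 0.0727) but was without inflamed tumour 1 or desert tumour 4 (adjusted p = 0.0335 and 0.0461).

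**Figure D5:**
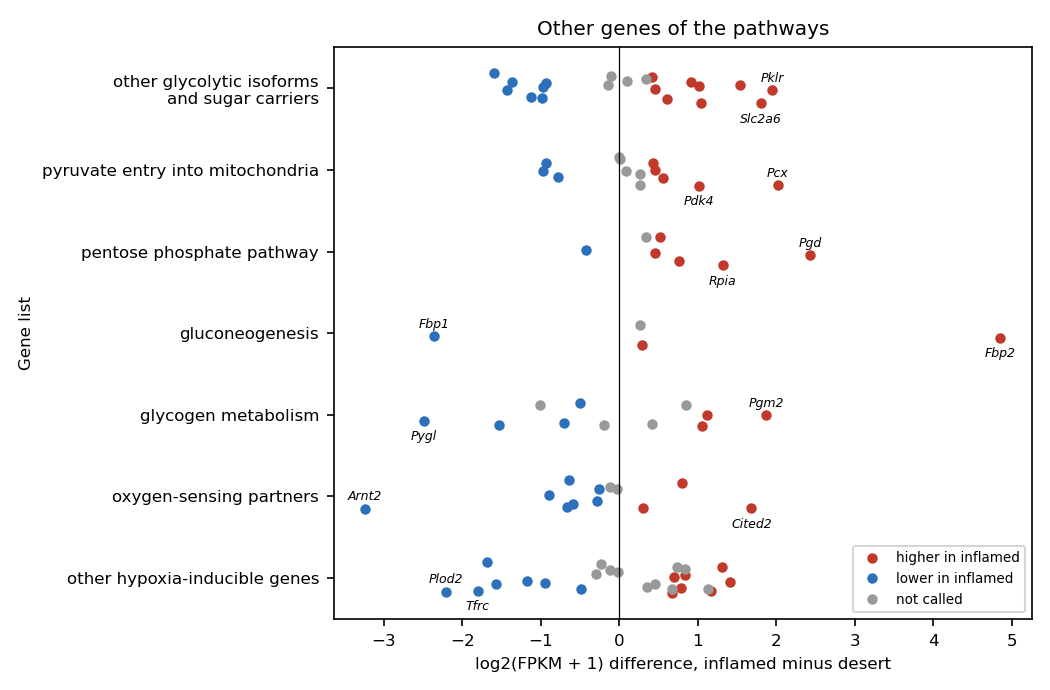
Each point is one tested gene of 7 pathway lists outside the set, placed by its log2(FPKM + 1) difference, inflamed minus desert, and coloured by call, with the genes of largest difference named. Fbp2 at 4.86 and Arnt2 at -3.23 mark the ends of the range.

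Among 12 partners of oxygen sensing, 3 rose and 7 fell. Arnt2, a dimer partner of the alpha subunits known from brain, averaged 3.56 ± 1.09 FPKM in inflamed tumours, against 42.1 ± 10.3 FPKM in desert tumours (-3.23; limma adjusted p = 2.28e-07), while the general partner Arnt was 8.73 to 9.30 FPKM in inflamed and 8.84 to 9.43 FPKM in desert tumours (-0.03; adjusted p = 0.733; named after its values were seen). Cited2, which competes with the alpha subunits for their coactivator, rose by 1.69 (adjusted p = 3.83e-06). Egln2, the third prolyl hydroxylase, fell by 0.64 on the log2 scale (adjusted p = 0.000777), so the hydroxylase genes Egln1 and Egln2 both fell. Elob, a subunit of the Vhl ligase, rose by 0.80 (adjusted p = 0.000104) against the fall of Vhl itself. Its other subunits, named after their values were seen, did not rise. Rbx1 (-0.59, adjusted p = 0.000789) and Cul2 (-0.29, adjusted p = 0.028) fell, and Eloc was not called (-0.11, adjusted p = 0.424).

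Hypoxia-inducible genes outside the set moved both ways, with 7 of 24 higher and 7 lower. Those named by level or size fell: Plod2, a collagen lysyl hydroxylase (-2.21; limma adjusted p = 1.02e-05), Tfrc, the transferrin receptor (-1.80; adjusted p = 0.000162), Ddit4, an inhibitor of mTOR signalling (-1.68; adjusted p = 1.33e-05) and Mif, a cytokine (-0.94; adjusted p = 0.00501). Desert tumour 1 was again high: of 25 such genes it was the highest desert tumour in 18 and above 2 times the median of the other 4 in 8. Over all 100 genes of the 7 lists it was the highest desert tumour in 35 of the 99 that were above 0, and the hypoxia-inducible list held 18 of those 35. On the TPM scale these counts were 22 and 14, beside 16.2% of all tested genes in which it was the highest desert tumour.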

How the data were processed

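RNA was isolated with TRIzol according to the protocol in the labels. The authors deposited FPKM values in 1 table with a column per tumour; aligner, counter and annotation: not given in the sources used here. Of builds, mm10 is in the submitters' processing notes, but gene positions in the table mostly differ from the GRCm38 annotation at hand, so positions are given as deposited, with no build. The protocol text speaks of fewer tumours than the 10 in the series, and all 10 were used. FPKM times gene length gave whole multiples of 1 step per library (100% of values within 0.01), from which the reads were recovered. The depth of 14148147 to 16951640 reads limits precision most for genes below 1 FPKM.

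Differences were tested in R 4.3.3 by limma 3.58.1 (tables were read with the data.table package, version 1.17.8) on log2(FPKM + 1). The moderation used trend and robust, the test was two-sided and tumour type was the sole term. It covered the 16750 genes whose mean FPKM reached 0.5, and p was Benjamini-Hochberg adjusted over all of them. The fit was tested on simulated data. Log2 ratios of 13 paralog pairs, with 1 added to each FPKM, were compared by exact permutation. Summaries and figures used Python 3.11.15 with numpy 2.4.6, pandas 2.3.3 and matplotlib 3.10.9. Values of all 10 tumours are given for called members with a difference of at least 1 on the log2 scale, for Hif1a, for the most abundant member of each role, and, chosen after their values were seen, for Egln3, Pfkm and Slc16a3. Of each pathway list, the 2 genes of largest called difference and the 2 of highest mean FPKM are named. Ero1l and Gif were matched to the table as Ero1a and Cblif. The members and lists were chosen with earlier results of these data known. Alternatives were pseudocounts of 0.1 and 5, no filter, a mean FPKM of at least 5, TPM, median-of-ratios and quantile scaling, plain moderation, array quality weights, limma voom on the recovered reads, a replicate block by tumour number, and omission of each library in turn; leaving out desert tumours 2 and 3 was added after the data had been seen.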

Additional observations from a re-analysis of the deposited data

Results flagged for a closer look

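In 124 sets of 5 tumours (each named gene in each group), a single tumour lay far from the other 4 in 15, by the gap to its nearest neighbour over the whole range (Dixon's ratio above 0.71). The ratio was taken on FPKM, not on the log2 scale. Chance would flag about 1 in 20 sets only if values were normally distributed and sets independent. Sets of the same tumours are not independent, so that rate is no measure of the 15. Of the 15, 9 were members in desert tumour 1, all at the high end. Egln1 had 52.4 FPKM there (next highest desert tumour 31.2), Slc2a1 50.1 FPKM (23.9), Gpi1 207 FPKM (128), Pfkl 63.2 FPKM (35.1) and Pfkp 14.0 FPKM (6.41). Slc16a3 had 61.5 FPKM (24.5), Bnip3 57.3 FPKM (22.2), Bnip3l 39.5 FPKM (28.5) and Ndrg1 47.2 FPKM (13.3).

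Desert tumour 3, where skeletal muscle genes were high, stood apart in Pfkm at 19.5 FPKM (next 5.48) and in Pdk4 at 8.40 FPKM (next 3.98). Pklr was 9.94 FPKM in desert tumour 4 (next 2.49). Inflamed tumour 4 was high in Pcx at 39.0 FPKM (next 24.2) and in G6pdx at 81.3 FPKM (next 61.7), and desert tumour 2 was low in Pcx at 4.20 FPKM (next 5.36).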

How the results depend on the processing

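Over 22 settings beside the main one, calls of Epas1, Pfkfb4, Slc16a1, Egln1, Vhl, Gpi1, Tpi1, Eno2, P4ha1, P4ha2 and the second Aldoa row were kept wherever they were tested. A mean FPKM of at least 5 left 2784 genes called higher and 3070 lower, since fewer genes were tested. TPM gave 3 members higher and 17 lower; leaving out 1 library gave 5 to 10 members higher, the 10 without desert tumour 1, and 8 to 13 lower. Same-numbered tumours did not deviate together (correlations of -0.0737 to 0.0763), so the numbers only name tumours. With the number as a replicate block, 6 members were higher and 12 lower, 4958 genes in all were higher and 4967 lower, Slc16a3 (adjusted p = 0.037) and Pygb (0.00739) gained a call, and 0 of 13 paralog ratios passed, since the sign-flip test of 5 pairs cannot go below 0.0625. A pseudocount of 0.1 let 7 ratios pass, adding Slc2a3/Slc2a1 (1.57; adjusted p = 0.0172) and Eno2/Eno1 (-1.17; 0.0442), and one of 5 let 4 pass, losing Pfkfb4/Pfkfb3.

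Signs turned only for genes and ratios not called in the main comparison. On the TPM scale these were Hk1 (-0.0442), Aldoa (-0.151), Pgk1 (-0.199), Pgam1 (-0.214), Ldhb (-0.0486) and Dld (-0.214), and with quantile normalization Aldoa (-0.161), Pgk1 (-0.147), Pgam1 (-0.0766) and Dld (-0.0288). Array quality weights turned Adm (0.0053). Leaving out 1 library gave -0.101 to 0.384 for Aldoa, -0.248 to 0.13 for Aldoc, -0.0899 to 0.37 for Pgk1, -0.0697 to 0.271 for Pgam1, -0.244 to 0.0095 for Eno1 and -0.363 to 0.019 for Ldha. It gave -0.0077 to 0.384 for Ldhb, -0.377 to 0.123 for Adm, -0.465 to 0.0589 for the ratio Aldoc/Aldoa and -0.0338 to 0.237 for P4ha2/P4ha1. Without desert tumours 2 and 3, Pgk1 was -0.0977 and Pgam1 -0.0400. A pseudocount of 5 turned the ratio Slc2a3/Slc2a1 (-0.146). The cause was not tested for any of these.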
